A study of Rattus norvegicus with 2 samples.

Results

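Cyclic AMP relaxes vascular smooth muscle, and its level and effect depend on the phosphodiesterases that break it down and on protein kinase A, the enzyme it activates. The mRNAs of 9 genes of these families were followed here, 5 phosphodiesterase genes (Pde3a, Pde3b, Pde4a, Pde4b, Pde4d) and 4 genes of protein kinase A subunits (Prkar1a, Prkar2a, Prkar2b, Prkaca). They were chosen by gene symbol, and all probe sets that the platform annotation gives to 1 of these symbols alone were taken, 15 of the 8799 on the array. A probe set is a group of short oligonucleotides that together read 1 transcript. The RNA of the portal hypertension group came from small mesenteric arteries, of the first and second order, of rats with prehepatic portal hypertension, which was brought about by tying off part of the portal vein. The RNA of the sham group came from the same arteries of rats that had a sham operation. Strain, sex, age and time after surgery are not given in the labels used here. Each group was a single pool of RNA from 20 rats read on 1 Affymetrix RG_U34A array, so no difference has a p-value, an SD or a test, the number of arrays limits the precision, and rat-to-rat variation is averaged away unseen.

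In the cell, adenylyl cyclases make cyclic AMP when receptors coupled to the G protein Gs are activated. Enzymes of the PDE3 and PDE4 families hydrolyse it. PDE3 enzymes are inhibited by cyclic GMP, the messenger of nitric oxide, while PDE4 enzymes are specific for cyclic AMP and are the targets of rolipram. Protein kinase A is held inactive by a dimer of regulatory subunits, which release the catalytic subunits when they bind cyclic AMP. In smooth muscle the kinase lowers cytosolic calcium and the calcium sensitivity of contraction, and in the nucleus it phosphorylates CREB, which binds the cyclic AMP response element.

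Values are linear signal intensities as deposited. Because no detection calls were used, a floor was set at a signal of 330.9, the 40th percentile over both arrays with controls left out, and anything dimmer was raised to it before taking log2. Of the 15 probe sets, 10 lay above the floor in both pools, 1 (of Pde4b) in the sham pool only, and 4 below it in both. Every log2 ratio is portal hypertension over sham. Signals of different probe sets are not comparable with each other, since each has its own binding strength. In pooled tissue, fewer cells of a type and less RNA per cell cannot be told apart.

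None of the 8 genes with a value differed by 1.5-fold or more between the pools, and most of them had a somewhat lower signal in portal hypertension. The lowest ratios belonged to Prkar2b, Pde4a and 1 of the Prkaca probe sets, each between 0.69 and 0.72 of its sham signal. Prkar1a and Pde3a were close to equal in both pools. Pde4b and Prkaca had probe sets that went opposite ways, and Pde4d stayed below the floor. The 10 probe sets above the floor in both pools had log2 ratios from -0.53 to 0.13, 7 below 0 and 3 above 0, with a median of -0.28 against -0.02 for all 4960 such probe sets on the array. Of these 10, 0 were at least 1.5-fold lower and 0 at least 1.5-fold higher, against 5.38% and 3.10% of the 4960. A ratio below 0 was common on the array, in 53.1% of them.

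**Figure D1:**
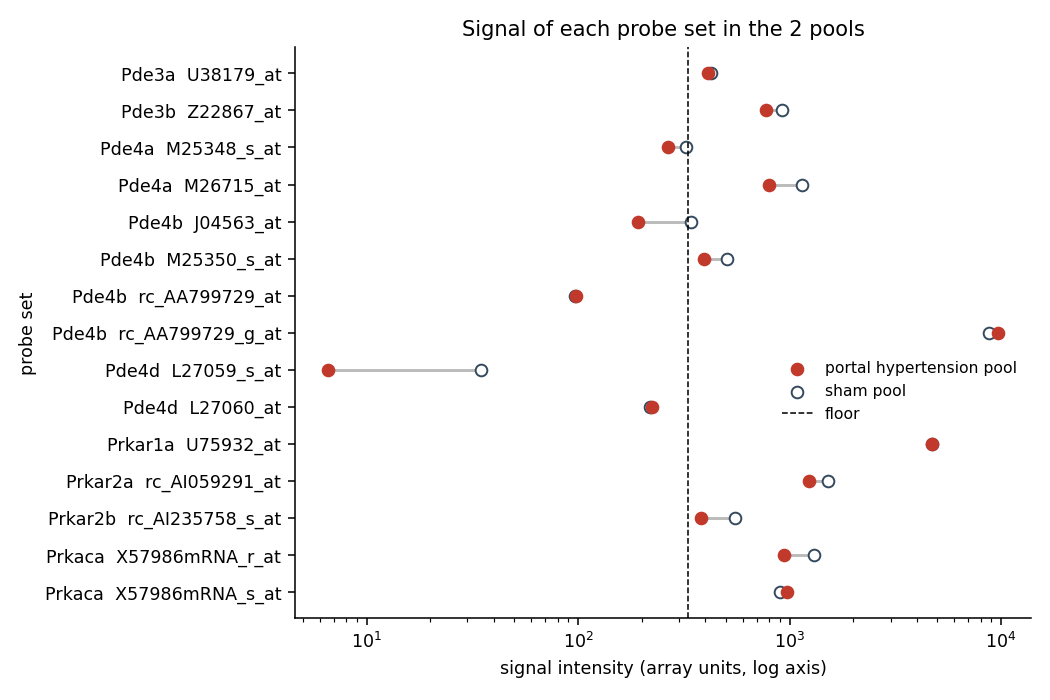
Signal intensity (horizontal log axis, array units) of each of the 15 probe sets (vertical axis, gene and probe set name) in the portal hypertension pool (filled red) and the sham pool (open), with the floor of 330.9 dashed. Prkar2b and the brighter Pde4a probe set lie to the left of their sham values, Prkar1a shows a single visible point because the pools coincide, and both Pde4d probe sets lie below the floor.

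The PDE3 genes differed little. Pde3a, the phosphodiesterase typical of vascular smooth muscle, heart and platelets, was read by 1 probe set (U38179_at) with a signal of 412.1 in the portal hypertension pool and 425.6 in the sham pool, a log2 ratio of -0.05. Both values were near the floor, and 46.6% of the array's measured probe sets had a lower ratio, so Pde3a sat in the middle of the array. Pde3b, the form through which insulin restrains fat breakdown in adipocytes, had 771.8 in the portal hypertension pool and 918.1 in the sham pool (Z22867_at), a log2 ratio of -0.25. A lower ratio was found for 22.2% of measured probe sets, and for 25.9% of the 1240 in its own level class. Measured probe sets were sorted for this into 4 level classes of 1240 by mean signal.

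Among PDE4 genes, Pde4a had the lowest ratio. This gene encodes a rolipram-sensitive enzyme that is made in several long and short forms. Its probe set M26715_at had 801.5 in the portal hypertension pool and 1141.7 in the sham pool, a log2 ratio of -0.51. Only 7.52% of measured probe sets had a lower ratio, and 9.92% of those in its level class. The other Pde4a probe set (M25348_s_at) read 266.0 in the portal hypertension pool and 325.5 in the sham pool, both below the floor. Without the floor its log2 ratio would be -0.29, but below the floor it gives no measured ratio.

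Pde4b, the PDE4 gene known for its induction by inflammatory signals and by cyclic AMP itself, had 4 probe sets that disagreed. M25350_s_at had 395.5 in the portal hypertension pool and 508.7 in the sham pool, a log2 ratio of -0.36. The probe set rc_AA799729_g_at, far above the floor, had 9630.2 in the portal hypertension pool and 8771.2 in the sham pool, a log2 ratio of 0.13. These went opposite ways, and the direction of Pde4b was not settled. J04563_at had 191.6 in the portal hypertension pool and 343.4 in the sham pool, so it was above the floor in the sham pool alone and gives only a bound, at least 1.04-fold lower in portal hypertension. The probe set rc_AA799729_at, made from the same cDNA clone sequence as rc_AA799729_g_at, read 98.3 in the portal hypertension pool and 96.4 in the sham pool, below the floor. The median over the 3 probe sets with a value was -0.05.

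Pde4d, whose long forms are recruited to beta-adrenergic receptors, could not be measured. L27060_at read 222.9 in the portal hypertension pool and 219.7 in the sham pool, and L27059_s_at read 6.6 in the portal hypertension pool and 34.8 in the sham pool. All of these lie below the floor, so no ratio is given, and a low signal does not show that the mRNA was missing.

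The regulatory subunits of protein kinase A differed in their ratios. Prkar1a, which encodes the type I alpha subunit found in most cells, had 4713.4 in the portal hypertension pool and 4704.2 in the sham pool (U75932_at), a log2 ratio of 0.00. Prkar2a, the type II alpha subunit that A-kinase anchoring proteins tether to membranes and cytoskeleton, had 1230.4 in the portal hypertension pool and 1524.7 in the sham pool (rc_AI059291_at), a log2 ratio of -0.31. Prkar2b, the type II beta subunit that is abundant in fat and brain, had 380.3 in the portal hypertension pool and 550.4 in the sham pool (rc_AI235758_s_at), a log2 ratio of -0.53, the lowest of the set. Each of these 3 genes rested on 1 probe set. For Prkar2b, 6.85% of measured probe sets had a lower ratio and 10.2% of the dimmest level class, in which ratios scattered with an SD of 0.40 against 0.26 in the brightest class. For Prkar2a the shares were 17.4% overall and 21.2% in its own class.

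Prkaca encodes the alpha catalytic subunit, the kinase itself. Its probe set X57986mRNA_r_at had 940.0 in the portal hypertension pool and 1306.1 in the sham pool, a log2 ratio of -0.47. Its probe set X57986mRNA_s_at had 972.3 in the portal hypertension pool and 902.0 in the sham pool, a log2 ratio of 0.11. Both were made from the same mRNA sequence, yet they went opposite ways, so the direction of Prkaca was not settled. Opposite probe sets were frequent on this array, in 43.6% of the 893 genes with several probe sets with a value.

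Promoter letters are shown for the genes of the set that hold the core of the cyclic AMP response element, because some PDE4 promoters are known to be induced by cyclic AMP. The motif was TGACG, searched on both strands (CGTCA on the other) in the 250 bases before each annotated start, in RefSeq sequence of the rat assembly GRCr8. The table used held 15 starts of 7 of the genes, Pde3b and Prkar2a not being among them. Of the 15 starts, 5 held the motif, 2 of the 4 starts of Pde4a, 2 of the 5 of Pde4d and the single start of Prkaca, or 33.3%, against 18.2% of all 33469 starts in the table. The motif was in 0 of the 2 starts of Pde4b, and in 0 of the 1 start each of Pde3a, Prkar1a and Prkar2b. The full palindrome TGACGTCA, which contains the shorter motif on each strand, was in 0 of the 15 and in 1.59% of all starts. Capitals mark the motif in windows of 41 bases, given on the strand of the gene, with the starts of a gene numbered in the order of the table.
Pde4a, start 1, chr8:27966946-27966986, plus strand: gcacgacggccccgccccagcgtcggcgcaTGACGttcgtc
Pde4a, start 3, chr8:27999372-27999412, plus strand: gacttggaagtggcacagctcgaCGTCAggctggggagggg
Pde4d, start 3, chr2:42592500-42592540, plus strand: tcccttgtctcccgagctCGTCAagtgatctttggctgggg
Pde4d, start 3, chr2:42592537-42592577, plus strand: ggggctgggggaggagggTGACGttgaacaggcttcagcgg
Pde4d, start 4, chr2:42767576-42767616, plus strand: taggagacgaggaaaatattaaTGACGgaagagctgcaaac
Prkaca, chr19:41083360-41083400, minus strand: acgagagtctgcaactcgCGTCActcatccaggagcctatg
Prkaca, chr19:41083246-41083286, minus strand: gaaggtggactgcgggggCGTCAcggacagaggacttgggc
In Pde4a the motif began 11 bases before start 1 and 18 bases before start 3, and in Pde4d 19 bases before start 4. Pde4a had a lower ratio on its 1 measured probe set, Pde4d had no value and the Prkaca probe sets disagreed. A match is a description of the letters and not evidence that a factor binds there, and which start the arteries used cannot be read from the array.

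**Figure D2:**
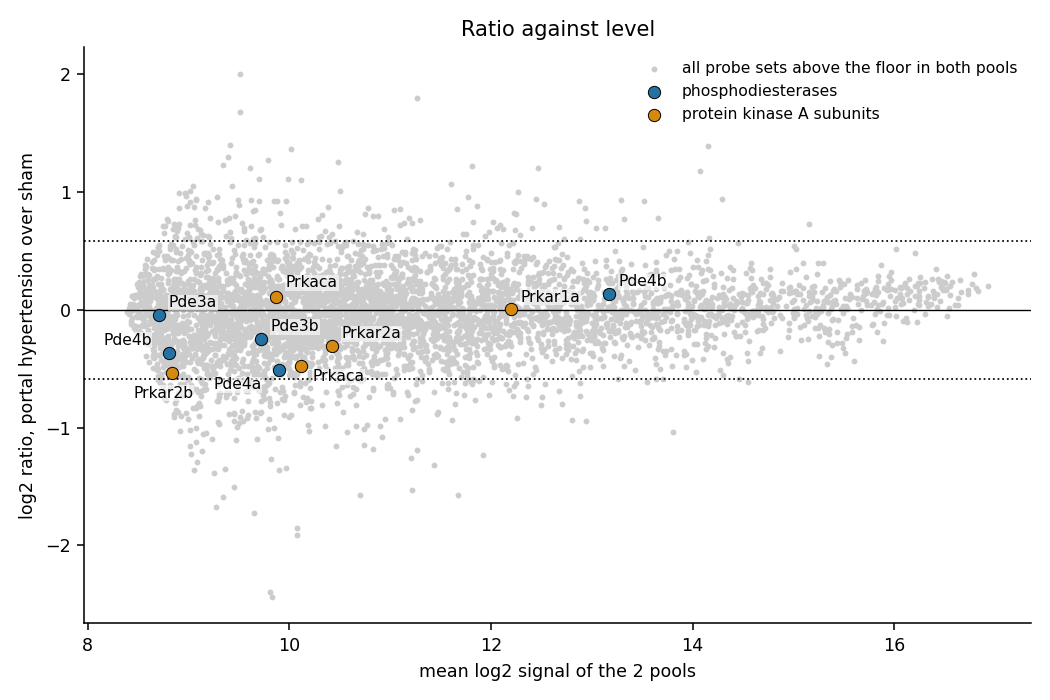
Log2 ratio of portal hypertension over sham (vertical axis) against the mean log2 signal of the 2 pools (horizontal axis) for the 4960 probe sets above the floor in both pools (grey), with 5 phosphodiesterase probe sets in blue and 5 protein kinase A probe sets in orange. Dotted lines mark 1.5-fold, and all 10 coloured points lie between them.

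The scatter between probe sets of the same gene gives a measure of how far a ratio can be trusted on these arrays. Over 1801 probe sets of 789 genes, ratios scattered around their gene's mean with an SD of 0.30, and this SD was 0.41 in the dimmest level class and 0.19 in the brightest. Of the 10 ratios of the set, 5 were within this SD of 0 and 5 were lower by at least as much, those of Prkar2b, Pde4a, Prkaca (X57986mRNA_r_at), Pde4b (M25350_s_at) and Prkar2a. On the whole array 18.3% of measured probe sets were that much lower. With the SD of its own level class in place of the pooled one, 3 of the 10 were lower by at least as much (Prkar2b, Pde4a and X57986mRNA_r_at of Prkaca), against 20% of measured probe sets, and the other 7 were within it. This SD covers neither the difference between rats nor that between arrays.

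Summed up by gene, with the median ratio over the probe sets above the floor in at least 1 pool, 8 of the 9 genes had a value. Of these, 7 were below 0, against 53.2% of the 3351 genes with a value on the array. The median over the 8 genes was -0.22, against -0.02 for all genes. At least 1.5-fold lower were 0 of the 8, and at least 1.5-fold higher 0, against 5.04% and 3.13% of all genes, or 8.18% in either direction. After quantile normalization the shares of all genes were 4.14% lower and 4.50% higher, and after removal of a loess trend 4.33% and 4.06%. Pde3b, Pde4a, Prkar2a and Prkar2b stayed below 0 under every alternative that gave them a value. Each of these genes had 1 probe set with a value as reported. The sign of 1 probe set cannot be turned by another floor, a pseudocount or the choice of probe sets. It could change only through quantile normalization or the loess. Pde4a was an exception as a gene, because its other probe set (M25348_s_at) gained a value under some alternatives. That value was -0.29 when the floor was lowered to percentile 20 and -0.22 under the pseudocount. The Pde4a median, now over both probe sets, was then -0.40 and -0.34. Prkar1a stayed within 0.02 of 0 on either side, Pde3a turned to 0.02 after quantile normalization, and Pde4b to 0.13 with the brightest probe set alone or with the floor at the 60th percentile.

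**Figure D3:**
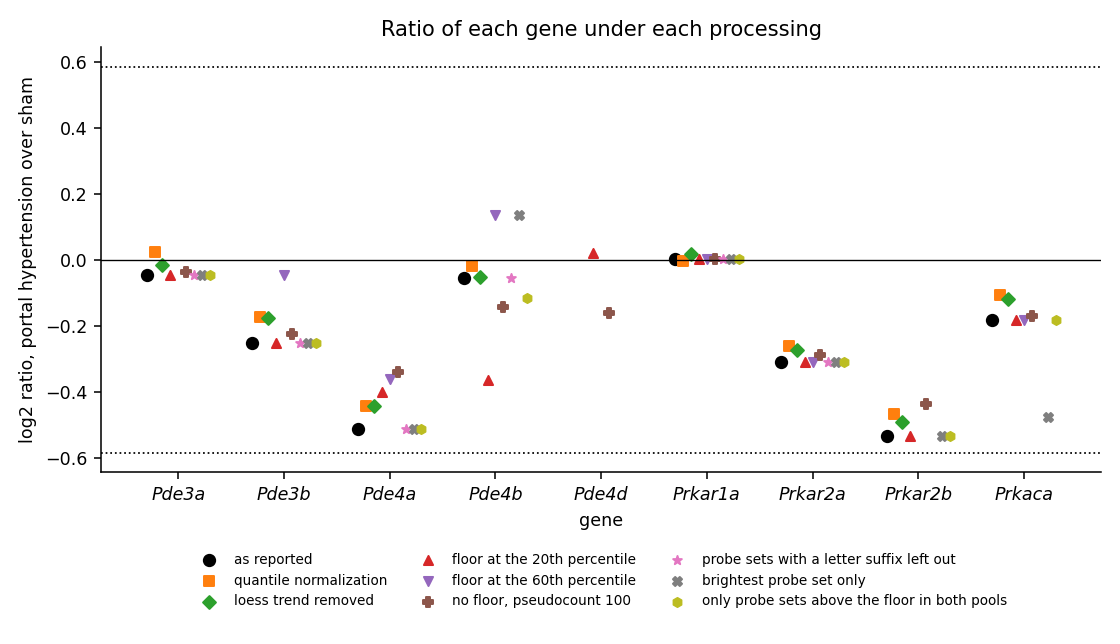
Log2 ratio of portal hypertension over sham (vertical axis) of each gene (horizontal axis) as reported (black circles) and under 8 alternative ways of processing (other symbols), with dotted lines at 1.5-fold. Pde4a and Prkar2b stay between -0.53 and -0.34 wherever they have a value, Pde4b has values on both sides of 0, and Pde4d has a value under 2 alternatives only.

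The rest of the cyclic AMP pathway was read from 9 lists of textbook members. Of their 128 genes, 62 had a value, with a median log2 ratio of -0.20. Below 0 were 42 of the 62 (67.7%, against 53.2% of all genes), and above 0 were 20. At least 1.5-fold lower were 4 of the 62 (6.45%, against 5.04% of all genes), and at least 1.5-fold higher 0 (against 3.13%). The 4 were Prkar1b, Creb1, Kcnmb1 and Vgf. The lists were drawn up with earlier results of these arrays known and are not independent evidence of a direction.

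Receptors and cyclases stand above the set in the pathway. Of 11 Gs-coupled receptor genes with a value, 8 were below 0 and 0 passed 1.5-fold, against 53.2% and 8.18% of all genes. Their median was -0.24. Ptgir, the prostacyclin receptor, had 1378.0 in the portal hypertension pool and 2008.1 in the sham pool, a log2 ratio of -0.54. The dopamine receptor gene Drd1 had -0.39, the glucagon-like peptide receptor gene Glp1r -0.37 and the fat cell receptor gene Adrb3 -0.34. Of 10 G protein genes, 5 were below 0 and 5 above, with a median of 0.02. Gnao1 had -0.45 on its measured probe set and Gnai1, an alpha subunit that inhibits cyclase, 0.27. Gnai2, another inhibitory subunit gene, had a median of -0.27 and Gng5 of -0.24, and each had probe sets on both sides of 0. Of 4 adenylyl cyclase genes with a value, Adcy3 had -0.27 and Adcy2 -0.21, while Adcy4 had 0.29 and Adcy5 0.13. Adcy6 and Adcy8 were below the floor. The receptor median ranged from -0.29 to -0.06 over the 8 alternatives, the G protein median from -0.02 to 0.10 and the cyclase median from -0.21 to -0.00, so none of these sizes was firm.

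Other phosphodiesterase genes gave few values. Pde1b, a calcium-stimulated form, had a log2 ratio of 0.18, Pde6d -0.10 and Pde4c -0.07 on its measured probe set. Pde5a, the cyclic GMP-specific form, was below the floor, as were Pde1c, Pde2a and Pde7a. Of the remaining protein kinase A genes, Prkar1b, the type I beta subunit best known from neurons, had 1964.2 in the portal hypertension pool and 3047.7 in the sham pool, a log2 ratio of -0.63. Prkacb, the beta catalytic subunit, had -0.46 and 0.03 on its 2 probe sets. Pkia, a peptide inhibitor of the catalytic subunit, had ratios of -0.28, -0.16 and -0.06 on its 3. The list of these genes had 3 with a value, 3 below 0 and 1 past 1.5-fold, against 53.2% and 8.18% of all genes. Its median was -0.22 and ranged from -0.22 to -0.06 over the alternatives, and that of the other phosphodiesterases was -0.07, with a range from -0.09 to 0.04.

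Anchoring proteins place the kinase in the cell. Of 6 such genes with a value, 4 were below 0 and 0 past 1.5-fold, against 53.2% and 8.18% of all genes. Their median was -0.25 (from -0.25 to -0.12 over the alternatives). Akap11 had 3061.0 in the portal hypertension pool and 4018.2 in the sham pool, a log2 ratio of -0.39, Akap1, the anchor at mitochondria, had -0.37, Akap12 -0.27 and Ezr, the membrane linker ezrin, -0.24.

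Substrates and nuclear effectors stand below the set. Of 13 smooth muscle substrates and channels, 8 were below 0, 1 was at least 1.5-fold lower and 0 higher. Of all genes these shares were 53.2%, 5.04% and 3.13%. The median of the substrates and channels was -0.28. This median ranged from -0.30 to -0.02 over the alternatives and was -0.02 with the brightest probe set of each gene alone. Kcnmb1, the subunit that raises the calcium sensitivity of the large-conductance potassium channel, had 10009.5 and 12569.9 on its 2 probe sets in the portal hypertension pool, against 20544.9 and 15826.3 in the sham pool, and a median log2 ratio of -0.68. Pln, the calcium pump brake that protein kinase A relieves, had -0.48 and the inositol trisphosphate receptor gene Itpr2 -0.48. Kcnj11, which forms the pore of potassium channels closed by ATP, had 596.8 in the portal hypertension pool and 360.4 in the sham pool on one probe set, a log2 ratio of 0.73, while the other probe set was above the floor in the sham pool alone and gave no measured ratio, and the gene's median over both was 0.36.

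Of 4 genes around CREB and Rap1, 3 were below 0, against 53.2% of all genes. Their median was -0.21 (from -0.29 to -0.01 over the alternatives). Creb1 had 339.9 in the portal hypertension pool, close to the floor, and 522.7 in the sham pool, a log2 ratio of -0.62. Atf2 had -0.31, Crem -0.11 and Rap1b 0.09, and the cyclic AMP-activated exchange factor genes Rapgef3 and Rapgef4 were below the floor. Of 9 known targets of CREB with a value, 8 were below 0, 1 was at least 1.5-fold lower and 0 higher. Of all genes these shares were 53.2%, 5.04% and 3.13%. The median of the targets was -0.19 (from -0.28 to -0.10 over the alternatives). Vgf, a neuropeptide precursor gene, had -0.71, and Nr4a2 had -0.51 on its measured probe set. Nr4a1 had -0.30, while the related nuclear receptor gene Nr4a3 had 0.44.

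**Figure D4:**
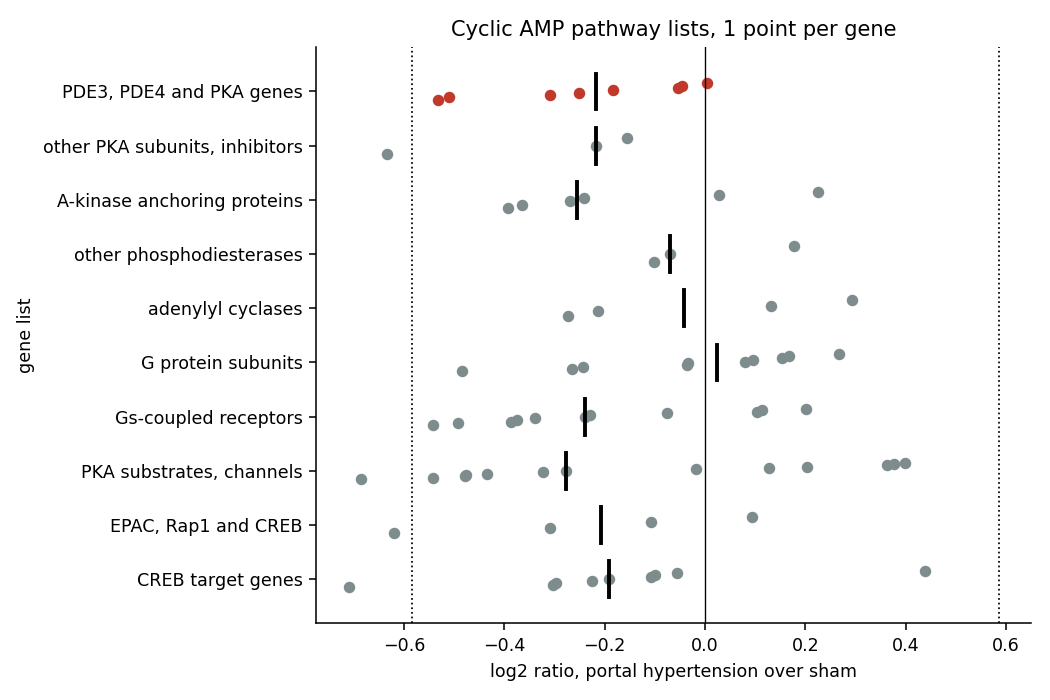
Log2 ratio of portal hypertension over sham (horizontal axis), 1 point per gene with a value, for the phosphodiesterase and protein kinase A set (red, top) and the 9 pathway lists (grey), with each list's median as a black bar and 1.5-fold as dotted lines. The medians lie between -0.28 and 0.02, and the points past the left dotted line are Prkar1b, Kcnmb1, Creb1 and Vgf.

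Markers of the cells in a dissected artery moved beside these values. For comparison, 53.2% of all genes were below 0, 5.04% at least 1.5-fold lower and 3.13% at least 1.5-fold higher. Smooth muscle genes were strongly present, with Acta2 between 35202.3 and 41128.5 in the portal hypertension pool and between 44982.5 and 51465.7 in the sham pool on its 3 probe sets. Of 7 smooth muscle markers, 5 were below 0 and 1 at least 1.5-fold lower (Kcnmb1), and the median was -0.10. Their summed signal was 520591 in the portal hypertension pool and 543343 in the sham pool. Each sum runs over all probe sets of a list, also those below the floor. It mostly reflects the brightest probe sets and is no measure of the amount of a cell type. Of 11 adipocyte markers, 9 were above 0 and 2 at least 1.5-fold higher (Scd and Acly), the median was 0.34, and the sum was 171283 in the portal hypertension pool and 121488 in the sham pool, with Plin1 below the floor. Pde3b and Prkar2b, genes of the set known from fat cells, had ratios below 0. Of the 11 fat markers, 2 were also below 0, Adrb3 (-0.34) and Lep (median -0.21, with probe sets on both sides of 0). The other 9 were above 0, with the largest ratios in Scd (1.01), Acly (0.93) and Cidea (0.57).

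Of 5 endothelial markers, 3 were below 0 and 2 above. At least 1.5-fold lower were 2 and at least 1.5-fold higher 2, against 5.04% and 3.13% of all genes. Their sums were 10112.9 in the portal hypertension pool and 10420.8 in the sham pool, and Kdr and Vwf were below the floor. Of 6 macrophage markers, 4 were above 0 and 1 at least 1.5-fold higher (59346.0 in the portal hypertension pool and 48668.5 in the sham pool, with Csf1r below the floor). Of 7 fibroblast markers, 6 were above 0 (605920 in the portal hypertension pool and 557660 in the sham pool). Of 6 nerve markers, 3 were above 0 (69923.6 in the portal hypertension pool and 69547.6 in the sham pool, with Dbh and Mbp below the floor). The part of cell makeup in the ratios was not tested. The scanner headers also note 12.5 µg of labelled RNA for the portal hypertension array and 17 µg for the sham array. In both headers a question mark follows the number, and the unit of µg was assigned here. The arrays were also run on different fluidics modules. These differences cannot be told apart from the operation.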

How the data were processed

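Total RNA of small mesenteric arteries, pooled over 20 rats in each of 2 groups, was read on 1 array per group. The authors deposited 1 signal intensity, on a linear scale, for each probe set of each array. How the signals were computed, background-corrected and scaled is not stated in the labels or file headers. Means without the lowest and highest 2% of values were 2504.38 (portal hypertension) and 2504.33 (sham), so no further scaling was applied. Run settings come from the scanner headers, per the file headers.

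Gene symbols came from GEO's platform annotation (7006 without controls had 1 symbol, 308 several), and 0 symbols changed through gene identifiers in RefSeq GRCr8. Values under the floor (330.9) were raised to it and log2 ratios taken. With 1 array per group there was no test. Calculations used Python 3.11.15, numpy 2.4.6, pandas 2.3.3 and statsmodels 0.14.6 (loess span 0.3) and were tested on simulated data. All 9 genes were named whatever their values. Up to 4 genes of each pathway list were named by largest absolute ratio over probe sets above the floor in both pools. Up to 3 of each marker list were picked by the same rule, but many of these are not named in the text. Lep and Adrb3 were named as fat markers because they were below 0, after their values were seen. Genes below the floor were also named after their values were seen. A letter before the ending of a probe set's name marks probes picked under relaxed rules or common to similar sequences. The members and lists were chosen with earlier results of these data known. Alternatives were quantile normalization, a loess, floors at the 20th and 60th percentiles, no floor with a pseudocount of 100, probe sets with a letter suffix left out, the brightest probe set only and only probe sets above the floor in both pools.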

Additional observations from a re-analysis of the deposited data

How the results depend on the processing

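The median log2 ratio over the genes of the set lay between -0.28 and -0.11 under 8 alternatives, against -0.22 as reported, and the count of genes at least 1.5-fold lower or higher was 0 under each. This median was nearer to 0 after quantile normalization (-0.14) and after removal of a loess trend (-0.15). The share of all genes below 0 was then 48.3% and 49.9%, against 53.2% as reported. The share of all genes at least 1.5-fold apart was 8.18% as reported, 15.1% with a floor at percentile 20 and 4.69% at percentile 60, since a floor compresses low signals. Of 117 values of single genes or probe sets of the set under the alternatives, 114 moved by less than the between-probe-set SD of 0.30. Many of these could not move, so the count does not measure how firm the values are. A gene with 1 probe set keeps its value where only the choice of probe sets changes. A probe set well above the floor keeps its value under another floor. Of 80 medians of the set and the 9 lists, 70 moved by less than 0.1 on the log2 scale, a tolerance chosen after the values were seen. The others were, at percentile 60, those of the set (-0.11), the cyclases (-0.21), the substrates (-0.16) and the CREB and Rap1 genes (-0.0067); with no floor, those of the anchoring proteins (-0.12) and receptors (-0.061); without letter-suffixed probe sets, those of the other phosphodiesterases (0.037) and the CREB and Rap1 genes (-0.11); and with the brightest probe set, those of the other kinase genes (-0.058) and the substrates (-0.015). The cause of these moves was not tested. At the lower floor the Pde4b probe set J04563_at came to -0.84, and to -0.60 with no floor and a pseudocount of 100, and the Pde4b median at the lower floor was -0.36. Pde4d had 0.02 at the lower floor and -0.16 with no floor. At the higher floor, 6 genes had a value and 4 were below 0. Leaving out probe sets with a letter suffix left Prkar2b and Prkaca without a value. Prkaca had -0.47 with the brightest probe set alone and -0.18 over both. No replicate could be left out, and no paired analysis was possible because each group has 1 pooled sample. Low signal limits Pde3a, Prkar2b, Creb1 and most Pde4b and Pde4d probe sets, which lay near or below the floor.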
